A study of Mus musculus with 51 samples.

Results

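At postnatal day 3 (P3), gonads in which R111G was the only intact *Dmrt1* allele (*Dmrt1* R111G/-) were compared with gonads that carried 1 wild-type allele (*Dmrt1* +/-). The comparison used 3 libraries of each genotype, chosen by their labels, out of 30 mRNA-seq libraries among the 51 samples of the series. Both groups carried the same deleted *Dmrt1* allele, so that they differed in whether the remaining allele was R111G or wild type. *Dmrt1* -/- gonads (3 libraries), with no intact allele, and *Dmrt1* R111G/+ gonads (3 libraries), with R111G beside a wild-type allele, were prepared at the same age and entered the same fit. All mice were on a mixed 129Sv and C57Bl/6J background, the study describes the gonads as XY, and the R111G line came from 1 edited founder. No wild-type +/+ library of this age was used here, and the labels do not say whether the 3 libraries of a genotype came from separate animals, so that p-values measure the spread between these samples. Other libraries came from isolated P7 Sertoli cells and from whole P28 gonads, and they are used below as independent measurements of the genes found at P3.

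DMRT1 is a transcription factor with a DM domain, a zinc-binding fold that contacts DNA, and it acts in both Sertoli cells and germ cells of the testis. Sertoli cells are the somatic cells that enclose and nourish the germ cells, and without DMRT1 they lose Sertoli characters after birth and take on features of granulosa cells, their ovarian counterpart. In spermatogonia DMRT1 controls the choice between mitosis and meiosis. The R111G change replaces an arginine in the DM domain by glycine, and the same change in a human patient was associated with XY gonadal dysgenesis. The question of the comparison is how much of the wild-type allele's work the R111G protein does by itself before transdifferentiation is advanced.

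The edited codon lies in exon 1 of *Dmrt1* (ENSMUSG00000024837, chr19:25505618-25604329, plus strand, GRCm38), whose exon 1 spans chr19:25505618-25506201. The stretch below is the reference sequence at chr19:25506133-25506201, the coding bases up to the end of exon 1, and it is shown to place the change. The capitals mark the arginine codon at chr19:25506178-25506180, which is codon 109 of mouse transcript ENSMUST00000025755.10 and encodes the arginine that the study's repair template changes. The study calls it R111, and its numbering of mouse residues is not stated in the sources used here.
Dmrt1 exon 1: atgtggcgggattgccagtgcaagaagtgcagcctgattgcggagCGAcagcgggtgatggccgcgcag

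Total counts ran from 7035359 to 8053869 in the +/- libraries and from 7423871 to 8249264 in the R111G/- libraries, and from 7035359 to 9101672 over all 12 P3 libraries. The mean absolute difference in log2 CPM (read counts scaled to a common library size, with sizes corrected by trimmed means) between a +/- and an R111G/- library had a median of 0.369, beside 0.367 between +/- libraries and 0.388 between R111G/- libraries. Over the whole transcriptome the R111G/- libraries were thus about as far from the +/- libraries as libraries within these 2 genotypes were from each other. The medians within -/- and within R111G/+ were lower, at 0.299 and 0.322, and that between R111G/- and -/- libraries was 0.337. The +/- libraries were uneven in content. Summed levels of 15 pan-germ-cell genes were 222, 622 and 347 CPM in +/- replicates 1 to 3 against 272, 293 and 189 in R111G/-, and summed levels of 7 erythroid genes were 636, 3100 and 1000 against 800, 640 and 872, so that replicate 2 of +/- was the highest in both. The part of these contents in the results below was not tested beyond the fits named with them.

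*Dmrt1* itself, the gene that carries the alleles, did not differ in transcript level between R111G/- and +/- gonads beyond the spread of the libraries. It stood at 55.9, 86.3 and 73.7 CPM in the +/- libraries and at 66.0, 79.4 and 55.6 in the R111G/- libraries, which overlapped. The means were 72.0 ± 15.3 and 67.0 ± 11.9 CPM (SD, n = 3), and the log2 fold change was -0.10 ± 0.177 (SE; adjusted p = 0.939). The -/- libraries held 3.11, 2.24 and 3.54 CPM, and R111G/- exceeded them by 4.48 on the log2 scale (adjusted p = 1.18e-06). R111G/+ gonads, which carry R111G beside a wild-type allele, held 137, 112 and 154 CPM, and R111G/- lay below them (log2 -1.0, adjusted p = 0.0176). The counts do not separate the alleles. Of the other genes within 5 Mb of *Dmrt1*, counted with it, 58 were tested and 0 were called by edgeR's quasi-likelihood test, 6 of them at an unadjusted p under 0.05.

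A gene was called where the Benjamini–Hochberg adjusted p of edgeR's quasi-likelihood F test was under 0.05 over the 15837 genes tested and the change exceeded 2-fold. Against +/-, 31 genes (0.196%) were called in R111G/- gonads, 25 lower (0.158%) and 6 higher (0.0379%). Without the fold limit 42 genes (0.265%) passed, 33 lower and 9 higher, and an unadjusted p under 0.05 was reached by 577 lower genes (3.64%) and 492 higher genes (3.11%). In each of the 42 the 3 libraries of 1 genotype did not overlap the 3 of the other, a condition met by 1450 genes (9.16%) of all tested. Leaving out each of the 6 libraries in turn kept the adjusted p under 0.05 for 20 of the 31 in all 6 fits. An exact permutation test of a single gene with 3 against 3 libraries cannot fall below p = 0.1, and the p-values below come from the model over all genes and are adjusted. The plot of fold change against p shows this small and mostly downward set. In whole gonads, fewer cells of a type and less RNA per cell cannot be told apart.

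**Figure D1:**
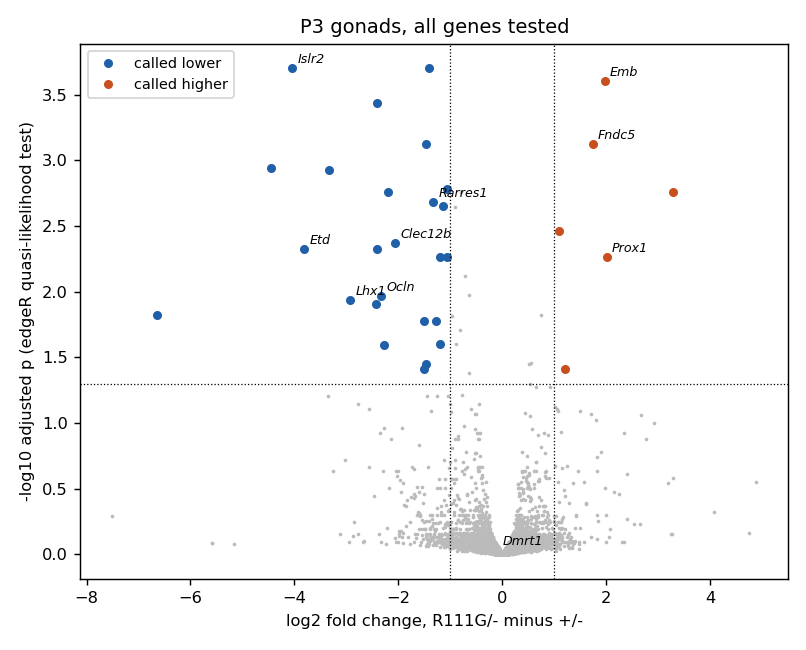
Log2 fold change of R111G/- over +/- P3 gonads (x axis) against −log10 of the adjusted p (y axis) for the 15837 genes tested, with called genes coloured and dotted lines at the thresholds. The 25 genes called lower outnumber the 6 called higher, *Islr2* and *Chp2* share the smallest adjusted p of 0.000199, and the x position of 4933416E14Rik, at 0 counts in R111G/-, depends on the prior count.

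Among the genes that fell, those with the largest changes nearly disappeared in R111G/- gonads. *Islr2* (ENSMUSG00000051243, chr9:58196297-58204319, minus strand), which encodes a leucine-rich repeat and immunoglobulin-domain membrane protein known from axon guidance, stood at 41.0, 61.1 and 68.5 CPM in +/- and at 3.56, 3.52 and 3.25 in R111G/-. Every R111G/- library was far below every +/- library, a 16.4-fold difference (log2 -4.04 ± 0.329, adjusted p = 0.000199). The -/- libraries held 2.74, 3.16 and 6.39 CPM, and the R111G/- level did not differ from theirs beyond the spread (log2 -0.26 ± 0.379, adjusted p = 0.89). *Islr2* in R111G/+ gonads lay between, at 22.9, 38.7 and 21.6 CPM, and R111G/- was below these (log2 -3.0, adjusted p = 0.00111).

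*Etd*, named for its expression in the embryonic testis, fell from 10.6, 11.5 and 11.4 CPM to 0.923, 0.243 and 1.22 CPM (log2 -3.81 ± 0.521, adjusted p = 0.00474). Its -/- libraries held 0.249, 0 and 0.342 CPM and its R111G/+ libraries 3.62, 1.68 and 5.41. In R111G/+ against +/- gonads 21 genes were called (0.133%, 0.0505% lower). *Kcng2*, a modifier subunit of voltage-gated potassium channels, was among them, with 16.4, 11.4 and 19.3 CPM in +/-, 3.03, 3.88 and 3.25 in R111G/-, and 3.18, 2.46 and 3.68 in R111G/+. For *Kcng2* the log2 fold changes against +/- were -2.20 ± 0.262 (adjusted p = 0.00175) in R111G/- and -2.33 (adjusted p = 0.002) in R111G/+, and both comparisons share the +/- libraries. In the panels of the most reduced genes, the R111G/+ libraries of *Islr2*, *Etd* and *Kcng2* lie below those of +/-, whereas those of *Slc52a3* and *Ocln*, described next, lie above. Of these genes *Kcng2* alone passed edgeR's test in R111G/+ against +/-. The adjusted p was 0.221 for *Islr2*, 0.243 for *Etd*, 0.849 for *Slc52a3* and 0.778 for *Ocln*.

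**Figure D2:**
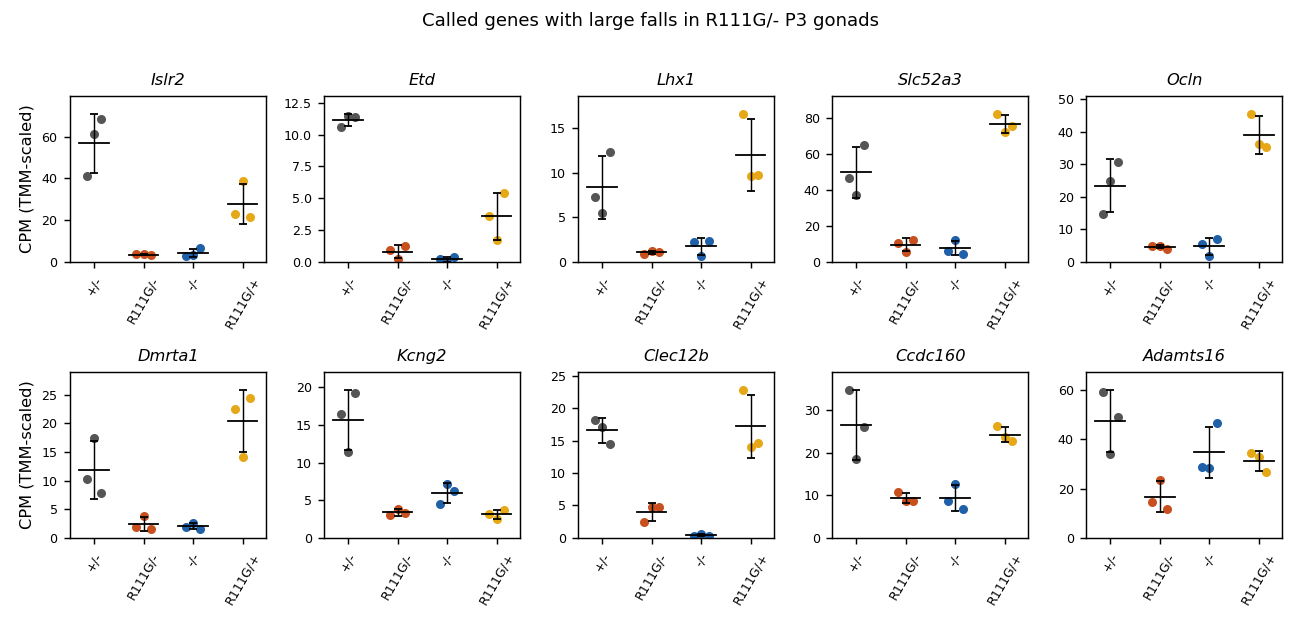
CPM (y axis, from 0) of 10 of the genes called lower in R111G/- than in +/- gonads, in the 4 P3 genotypes, with a dot for each of 3 libraries, a line at the mean and a bar for the SD. The R111G/- dots of *Islr2* sit between 3.25 and 3.56 CPM, below all +/- dots from 41.0 to 68.5.

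*Ocln* (ENSMUSG00000021638, chr13:100496507-100552718, minus strand) was among the genes called lower. It encodes occludin, a membrane protein of the tight junctions that form the blood-testis barrier. *Ocln* stood at 14.8, 24.9 and 30.7 CPM in +/-, at 5.01, 4.86 and 4.07 in R111G/-, at 5.60, 1.84 and 6.96 in -/-, and at 45.6, 36.3 and 35.2 in R111G/+. The groups R111G/- and +/- did not overlap, and *Ocln* fell (log2 -2.33 ± 0.354, adjusted p = 0.0108). The direct comparison with R111G/+ gave -3.07 (adjusted p = 0.00144). The *Ocln* call against +/- was lost without R111G/- replicate 1, R111G/- replicate 3 or +/- replicate 3, with an adjusted p of at most 0.0882. Of 11 tight junction genes tested, *Ocln* alone was called (9.09%, beside 0.196% of all genes), 4 reached an unadjusted p under 0.05, all lower, and the median log2 fold change was -0.38 beside 0 for all genes. The next were *Cldn11*, the Sertoli cell claudin (log2 -1.37, adjusted p = 0.0803), and *Cgn*, which encodes cingulin (log2 -0.90, adjusted p = 0.131), neither of which passed.

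*Slc52a3*, a riboflavin transporter, went from 46.9, 37.5 and 65.1 CPM in +/- to 10.7, 5.34 and 12.3 in R111G/- (log2 -2.40 ± 0.328, adjusted p = 0.00474), with 82.6, 72.4 and 75.5 CPM in R111G/+. *Dmrta1*, another member of the DM-domain family, went from 10.3, 17.5 and 7.75 CPM to 1.85, 3.88 and 1.49 (log2 -2.28 ± 0.391, adjusted p = 0.0254). *Adamts16*, a secreted metalloprotease, went from 59.5, 34.2 and 49.0 CPM to 14.6, 23.7 and 11.9 (log2 -1.50, adjusted p = 0.0387), and its -/- libraries at 28.9, 28.5 and 46.7 CPM were higher than those of R111G/-. *Aard*, a transcript of Sertoli cells, went from 277, 417 and 343 CPM to 151, 120 and 182 (log2 -1.19 ± 0.167, adjusted p = 0.00548). The calls of *Dmrta1* and *Adamts16* were each lost without 1 library, *Dmrta1* without R111G/- replicate 1 or 3 or +/- replicate 1 or 2, and *Adamts16* without R111G/- replicate 1 or 3 or +/- replicate 1 or 3, with adjusted p-values of at most 0.175 and 0.227.

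Apart from *Ccdc160*, the genes of the next sentences were chosen for mention after their values were seen. *Chp2*, a calcineurin B homologous protein, had one of the tightest differences, from 95.0, 91.8 and 105 CPM to 38.9, 38.6 and 33.1 (log2 -1.40 ± 0.119, adjusted p = 0.000199). *Gpr37*, an orphan G protein-coupled receptor, fell from 100, 80.8 and 99.6 CPM to 35.2, 40.2 and 26.7 (log2 -1.46 ± 0.152, adjusted p = 0.000754). *Cidea*, a lipid droplet protein, fell from 2.42, 3.56 and 3.52 CPM to 0.132, 0.121 and 0.136 (log2 -4.45, adjusted p = 0.00115), a single count in each R111G/- library. 4933416E14Rik, annotated as a transcribed processed pseudogene whose reads may be shared with its parent gene, had 10, 14 and 10 counts in +/- and 0 in all R111G/- libraries, at least 11.8-fold lower against a floor of 3 counts over the group. *Mxd1*, a partner of MAX that opposes MYC, *Tulp2*, *Fstl4*, *Reep2*, *Ccdc160* and 4930550L24Rik followed with log2 fold changes of -1.07, -1.06, -2.43, -1.20, -1.50 and -2.40. The calls of *Fstl4* and 4933416E14Rik were lost without R111G/- replicate 1 or 3 or +/- replicate 3, those of *Ccdc160* without any library but +/- replicate 2, that of *Reep2* without R111G/- replicate 1 or 3 or +/- replicate 1 or 3, and that of *Tulp2* without R111G/- replicate 2 or +/- replicate 3.

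How far the R111G allele differed from no allele was tested directly by R111G/- against -/- gonads, in which 28 of the 15837 genes were called (0.177%), 19 higher (0.12%) and 9 lower (0.0568%) in R111G/-. Among the 25 genes called lower than in +/-, 3 passed this test, all higher in R111G/- than in -/-. *Rarres1*, a retinoic acid responder gene, stood at 21, 24.8 and 25.9 CPM in +/-, at 10.4, 8.86 and 9.22 in R111G/- and at 0.995, 0.658 and 1.03 in -/-. R111G/- was thus below +/- (log2 -1.33 ± 0.163, adjusted p = 0.00209) and above -/- (log2 3.38 ± 0.224, adjusted p = 9.3e-06). *Clec12b*, an inhibitory C-type lectin receptor, stood at 18.2, 17.1 and 14.5 CPM in +/-, at 2.37, 4.73 and 4.75 in R111G/-, and at 0.249, 0.526 and 0.342 in -/- (log2 -2.07 ± 0.277, adjusted p = 0.00427 and log2 3.37 ± 0.422, adjusted p = 0.00501). The predicted gene Gm14569 on the X chromosome had 70.4, 61.0 and 86.8 CPM in +/-, 31.1, 37.5 and 31.1 in R111G/- and 14.7, 16.4 and 15.0 in -/- (log2 -1.13 ± 0.14, adjusted p = 0.00221 and log2 1.11 ± 0.150, adjusted p = 0.00847). *Rarres1* and Gm14569 were named after their values were seen. The Gm14569 call against +/- was lost without +/- replicate 3, where the change fell under 2-fold. For the other 22 the difference from -/- did not pass, which does not show that R111G and the null allele act alike at them.

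The test against R111G/+ separated the genotypes more often. In R111G/- against R111G/+ gonads 73 genes (0.461%) were called, 56 lower (0.354%) and 17 higher (0.107%). Of the 25 genes called lower than in +/-, 19 also had an adjusted p under 0.05 here, *Islr2*, *Ocln*, *Slc52a3* and *Clec12b* among them, and of the 6 called higher 0 did. At any fold, 132 of all genes tested passed in this comparison. The 25 were chosen for low values in the same R111G/- libraries, which favours lower values here, so the count of 19 is not independent of that choice. The test against -/- shares the R111G/- libraries too.

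The genes that rose were fewer, and they fell into separate patterns over the 4 genotypes. *Emb* (ENSMUSG00000021728, chr13:117208536-117274415, plus strand), which encodes embigin, a chaperone of monocarboxylate transporters at the cell surface, stood at 15.8, 18.7 and 23.1 CPM in +/- and at 84.8, 77.4 and 62.9 in R111G/-. Every R111G/- library was above every +/- library, a 3.91-fold difference (log2 1.97 ± 0.177, adjusted p = 0.00025). The -/- libraries, at 13.4, 9.73 and 13.4 CPM, were at or below the +/- level, and R111G/- exceeded them by 2.62 on the log2 scale (adjusted p = 1.21e-05). The R111G/+ libraries held 67.2, 54.9 and 49.6 CPM of *Emb*, so that both genotypes with an R111G allele were high and both without one were low.

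*Fndc5*, which encodes the precursor of irisin, and *Slc38a5*, a glutamine transporter, were likewise high in both genotypes with R111G. *Fndc5* stood at 64.3, 43.6 and 44.5 CPM in +/-, at 166, 188 and 156 in R111G/-, at 50.1, 53.9 and 72.0 in -/- and at 189, 144 and 193 in R111G/+. It was 3.34-fold higher in R111G/- than in +/- (log2 1.74 ± 0.181, adjusted p = 0.000754) and higher than in -/- (log2 1.53, adjusted p = 0.00258). *Slc38a5* stood at 45.1, 28 and 28.3 CPM in +/-, at 87.3, 78.4 and 67.8 in R111G/-, at 36.5, 25.4 and 21.1 in -/- and at 67.5, 81.4 and 58.0 in R111G/+ (log2 1.2 ± 0.218, adjusted p = 0.0387 against +/- and log2 1.49, adjusted p = 0.0118 against -/-). The *Slc38a5* call against +/- was lost without R111G/- replicate 1, 2 or 3 or +/- replicate 2 or 3, with an adjusted p of at most 0.212.

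In R111G/+ against +/- gonads, which shares the +/- libraries, *Emb* (log2 1.58, adjusted p = 0.002) and *Fndc5* (log2 1.79, adjusted p = 0.00102) were higher, while *Slc38a5* did not pass (log2 1.03, adjusted p = 0.0812).

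R111G/+ against -/- gonads is a comparison of libraries other than those of R111G/- and +/-, and it was added after the pattern had been seen. In it 299 genes (1.89%) were called, 143 higher (0.903%) and 156 lower (0.985%). *Emb* was higher in R111G/+ by 2.23 on the log2 scale (adjusted p = 3.09e-05), *Fndc5* by 1.58 (adjusted p = 0.000348) and *Slc38a5* by 1.32 (adjusted p = 0.00463). R111G/+ and -/- also differ in having a wild-type allele, so that in this comparison the R111G and wild-type alleles cannot be told apart. Among genes that passed without reaching 2-fold, *Psat1*, an enzyme of serine synthesis, and *Colgalt1*, a collagen galactosyltransferase, were higher in R111G/- than in +/- (log2 0.51, adjusted p = 0.0357 and log2 0.56, adjusted p = 0.0349), than in -/- (log2 0.56, adjusted p = 0.0222 and log2 0.56, adjusted p = 0.0379), and in R111G/+ than in -/- (log2 0.40, adjusted p = 0.0289 and log2 0.63, adjusted p = 0.00305). *Rassf2*, a RAS-association domain gene, was higher in R111G/- than in +/- (log2 0.75, adjusted p = 0.0151) but did not pass against -/- (log2 0.58, adjusted p = 0.0775). In R111G/+ against +/- *Psat1* did not pass (log2 0.35, adjusted p = 0.23). Against +/-, *Psat1* passed in 0 of the 6 fits without 1 library (adjusted p at most 0.178), the pass of *Colgalt1* was lost without R111G/- replicate 1 or 3 or +/- replicate 1 or 3 (at most 0.188), and that of *Rassf2* without R111G/- replicate 3 or +/- replicate 1 or 3 (at most 0.102).

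The remaining genes called higher were high in -/- gonads too. *Prox1*, a homeobox factor known from lymphatic endothelium, stood at 3.69, 2.46 and 3.10 CPM in +/-, at 9.49, 15.9 and 12.1 in R111G/-, at 14.9, 9.47 and 17.0 in -/- and at 12.6, 12.6 and 9.32 in R111G/+ (log2 2.01 ± 0.283, adjusted p = 0.00548 against +/-). *Neto2*, an auxiliary subunit of kainate receptors, stood at 32.7, 30.1 and 36.1 CPM in +/-, at 66.3, 85.9 and 59.3 in R111G/-, at 81.2, 97.1 and 97.1 in -/- and at 56.7, 46.8 and 49.7 in R111G/+ (log2 1.10 ± 0.143, adjusted p = 0.00343). 5330417C22Rik, named after its values were seen, went from 4.33, 3.56 and 5.78 CPM in +/- to 46.9, 58.7 and 28.1 in R111G/-, 9.79-fold (log2 3.29 ± 0.394, adjusted p = 0.00175), with 20.2, 11 and 30.5 CPM in -/- and 25.3, 16.4 and 14.5 in R111G/+. For these 3 genes the difference between R111G/- and -/- did not pass. The *Neto2* call was lost without R111G/- replicate 2, where the change fell under 2-fold.

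**Figure D3:**
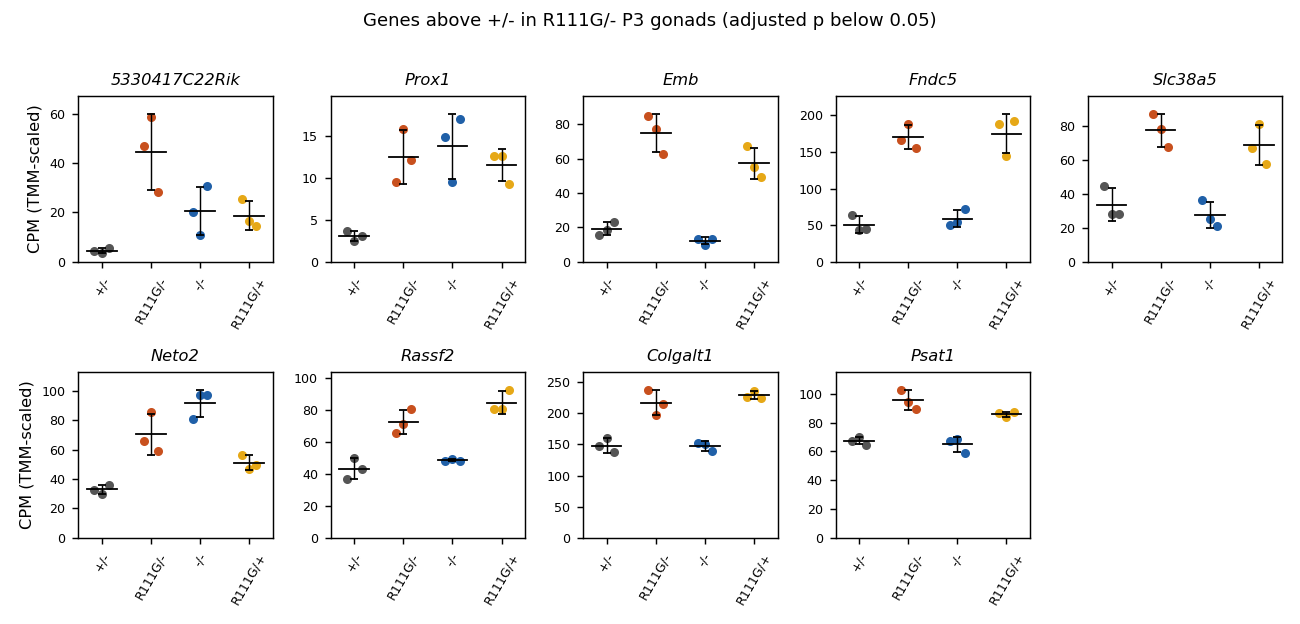
CPM (y axis, from 0) of the 6 genes called higher in R111G/- than in +/- gonads and of the 3 that passed under 2-fold, in the 4 P3 genotypes, with a dot for each of 3 libraries, a line at the mean and a bar for the SD. *Emb*, *Fndc5* and *Slc38a5* are high in R111G/- and R111G/+ and low in +/- and -/-, while *Prox1* and *Neto2* are higher in -/- than in +/-.

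Promoter sequences were read for these genes because DMRT1 binds DNA. RefSeq promoters (GRCm38.p6, 250 bases before to 50 after the start of each gene) matched 29 of the 42 genes that passed, 21 lower and 8 higher. Those shown are of *Islr2*, the gene with the smallest p, *Emb*, the gene that rose with the smallest p, and *Clec12b*, one of the genes at a level between +/- and -/-, and each is printed on the strand of its gene. The RefSeq starts of *Emb* and *Clec12b* lie inside the genes as GENCODE M21 bounds them, so that these windows are not at the outermost starts of those genes. ACATTGT, the core letters of the DMRT1 motif, and ATTGT, the core letters of the SOX motif, were searched on both strands. ATTGT also lies inside ACATTGT, and a match to it alone is not a match to the DMRT1 letters. The capitals in the *Clec12b* promoter mark the reverse strand of ATTGT, 99 bases before the start.
Islr2 chr9:58204270-58204569, minus strand: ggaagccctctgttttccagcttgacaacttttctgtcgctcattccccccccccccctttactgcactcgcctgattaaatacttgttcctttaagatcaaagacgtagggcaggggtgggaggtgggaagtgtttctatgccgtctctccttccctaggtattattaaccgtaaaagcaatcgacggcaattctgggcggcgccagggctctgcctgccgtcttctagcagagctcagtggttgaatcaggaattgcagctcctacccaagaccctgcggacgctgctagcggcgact
Emb chr13:117220323-117220622, plus strand: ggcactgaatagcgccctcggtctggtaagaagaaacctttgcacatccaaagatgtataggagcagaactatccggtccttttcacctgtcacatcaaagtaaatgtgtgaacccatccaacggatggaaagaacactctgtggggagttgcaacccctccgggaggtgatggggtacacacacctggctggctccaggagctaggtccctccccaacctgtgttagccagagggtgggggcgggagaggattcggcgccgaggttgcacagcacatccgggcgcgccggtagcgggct
Clec12b chr6:129385454-129385753, minus strand: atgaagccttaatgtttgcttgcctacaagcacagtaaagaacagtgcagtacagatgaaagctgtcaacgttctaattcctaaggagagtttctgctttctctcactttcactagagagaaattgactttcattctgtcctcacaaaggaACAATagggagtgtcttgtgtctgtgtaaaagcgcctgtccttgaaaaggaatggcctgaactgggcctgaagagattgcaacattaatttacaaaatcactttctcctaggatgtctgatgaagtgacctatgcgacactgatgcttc
ACATTGT was in 0 of the 21 lower and 0 of the 8 higher promoters, beside 171 (1.51%) of the 11352 promoters of genes tested. ATTGT was in 6 of the 21 lower promoters (28.6%) and 0 of the 8 higher ones, beside 20% of all. AGATAA, the letters of the GATA motif, was in 2 of the 21 lower promoters (9.52%), beside 6.22% of all. AAGGTCA, the letters of the NR5A1 motif, was in 1 of them (4.76%), beside 3.17%. Each of these was in 0 of the 8 higher ones. A match is a description of letters and not a binding site, and the absence of one says nothing of DMRT1 binding elsewhere.

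Germ cells were examined by lists of their stages. Of the 14 genes tested from the list for undifferentiated spermatogonia, 2 were called, both lower (14.3%, beside 0.158% of all genes called lower). An unadjusted p under 0.05 in edgeR's test was reached by 7, all lower, beside 3.64% of all genes. In this list 13 lay below 0 with a median log2 fold change of -1.08, beside 0 for all genes. *Lhx1*, a LIM homeobox factor that GDNF induces in spermatogonial stem cells, stood at 7.26, 5.47 and 12.3 CPM in +/- and at 0.923, 1.21 and 1.08 in R111G/- (log2 -2.93 ± 0.45, adjusted p = 0.0116). *Bcl6b*, a repressor that acts in the same response, stood at 19.2, 23.1 and 26.2 CPM against 10.7, 8.01 and 9.63 (log2 -1.27 ± 0.207, adjusted p = 0.0168). In both genes the R111G/- libraries lay below all +/- libraries, near the -/- libraries (2.24, 0.658 and 2.28 CPM of *Lhx1*, 10.6, 6.71 and 9.70 of *Bcl6b*) and below the R111G/+ libraries (16.6, 9.61 and 9.67, and 34.3, 23.0 and 26.6). *Ret* and *Gfra1*, which encode the receptor pair for GDNF, did not pass. *Ret* stood at 10.8, 33.1 and 25.4 CPM against 2.37, 4.98 and 2.58 (log2 -2.78 ± 0.555, adjusted p = 0.0714), and *Gfra1* at 15.7, 47.1 and 35.9 against 9.36, 7.77 and 8.95 (log2 -1.92 ± 0.416, adjusted p = 0.108). The *Lhx1* call was lost without R111G/- replicate 1 or 3 or +/- replicate 3 (adjusted p at most 0.0882), and that of *Bcl6b* without any single library but +/- replicate 1 (adjusted p at most 0.102). *Lhx1*, *Bcl6b*, *Ret* and *Gfra1* were also detected in the isolated control Sertoli cells at P7, at means of 3.93, 14.6, 19.2 and 30.5 CPM.

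Genes common to germ cells of all stages were not called. Of the 15 members of that list 0 were called by edgeR's test, 1 reached an unadjusted p under 0.05 in each direction, and the median was -0.47, which turned to 0.24 without +/- replicate 2. *Ddx4*, the germ cell RNA helicase, was among those that did not pass (log2 -0.99, adjusted p = 0.735). Set against *Ddx4* in the same library, a ratio chosen after the data were seen, *Ret* stood at 37.6, 44.6 and 67.2% of *Ddx4* in +/- and at 9.28, 20.6 and 12.3% in R111G/-. *Gfra1* stood at 54.4, 63.5 and 95.1% against 36.6, 32.2 and 42.6%, and *Lhx1* at 25.2, 7.38 and 32.5% against 3.61, 5.03 and 5.16%. For these 3 of the 6 genes examined the groups did not overlap in this ratio. The share of all genes without overlap in this ratio is not given here, so the count cannot be weighed. The other 3 overlapped, *Bcl6b* with 66.8, 31.2 and 69.4% against 41.8, 33.2 and 45.8%, *Zbtb16* with 32.7, 65.9 and 73.9% against 19.1, 35.7 and 50.3%, and *Etv5* with 208, 88.7 and 155% against 174, 210 and 228%, higher on average in R111G/-. With the summed germ cell level as a covariate, added after seeing the data, the median of the undifferentiated list went from -1.08 to -0.38 and that of the pan-germ-cell list to 0.25, and without +/- replicate 2 the undifferentiated median was -0.67.

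Most genes that mark Sertoli cells did not pass at this age. Of 28 Sertoli cell genes tested, 2 were called, *Aard* and *Ocln*, both lower (7.14%, beside 0.158% of all genes called lower). An unadjusted p under 0.05 in edgeR's test was reached by 8 lower and 2 higher, beside 3.64% and 3.11% of all genes. The median was -0.22, beside 0 for all genes. *Sox9*, the factor that establishes Sertoli cells, stood at 137, 114 and 147 CPM in +/- and at 98.0, 130 and 75.7 in R111G/-, overlapping (log2 -0.39 ± 0.222, adjusted p = 0.798). *Sox8* and *Amh*, the partner of SOX9 and the hormone that removes the Müllerian ducts, had log2 fold changes of 0.02 and -0.24 (adjusted p = 0.898 for *Amh*). *Fshr*, the receptor for follicle-stimulating hormone, stood at 46.6, 28 and 37.8 CPM against 18.7, 18.9 and 19.3 without overlap, and did not pass (log2 -0.98 ± 0.203, adjusted p = 0.083). The Sertoli cystatins lay on opposite sides of 0, *Cst9* at -1.04 (adjusted p = 0.699) and *Cst12* at 0.83 (adjusted p = 0.235), and neither passed.

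Granulosa cell genes were not called. Of 21 ovary-determining and granulosa cell genes tested, 0 were called in either direction by edgeR's test, 2 reached an unadjusted p under 0.05, both higher, and the median was 0.05. *Foxl2*, the factor that maintains granulosa cells, was low in both genotypes, at 1.02, 0.410 and 1.13 CPM in +/- and 0.923, 0.850 and 1.08 in R111G/- (log2 0.15, adjusted p = 0.965). *Esr2*, the estrogen receptor of granulosa cells, *Nr5a2*, which encodes LRH1, *Hsd17b1*, an enzyme of estradiol synthesis, and *Zfp521* had log2 fold changes of -0.11, -0.03, 0.10 and 0.25. *Cyp19a1*, which encodes aromatase, had 0 to 2 counts in each +/- and R111G/- library and was not tested. *Fst*, which encodes the activin antagonist follistatin, had the largest difference of the list and did not pass (log2 1.03, adjusted p = 0.511).

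Of the Leydig, peritubular myoid, stromal, endothelial and macrophage genes 0 were called by edgeR's test, and the unadjusted p was under 0.05 for 1 Leydig cell gene in each direction and for 1 stromal, 1 endothelial and 1 macrophage gene, all higher. The epididymis and rete list and the adrenal list also held 0 called genes, with *Krt8* (log2 0.88, adjusted p = 0.582) and *Cyp21a1* (log2 -1.70, adjusted p = 0.374) at an unadjusted p under 0.05. The medians were 0.11 over 13 Leydig cell genes, 0.01 over 8 peritubular myoid genes, 0.17 over 14 stromal genes, 0.07 over 13 endothelial genes and 0.46 over 13 macrophage genes, whose summed level was 168, 216 and 127 CPM in +/- and 233, 174 and 291 in R111G/-. Of the 7 erythroid genes summed above 0 were called by edgeR's test, 3 reached an unadjusted p under 0.05, all lower, and the median was -1.09, or -0.30 without +/- replicate 2. The plot of gene lists shows these values by gene.

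**Figure D4:**
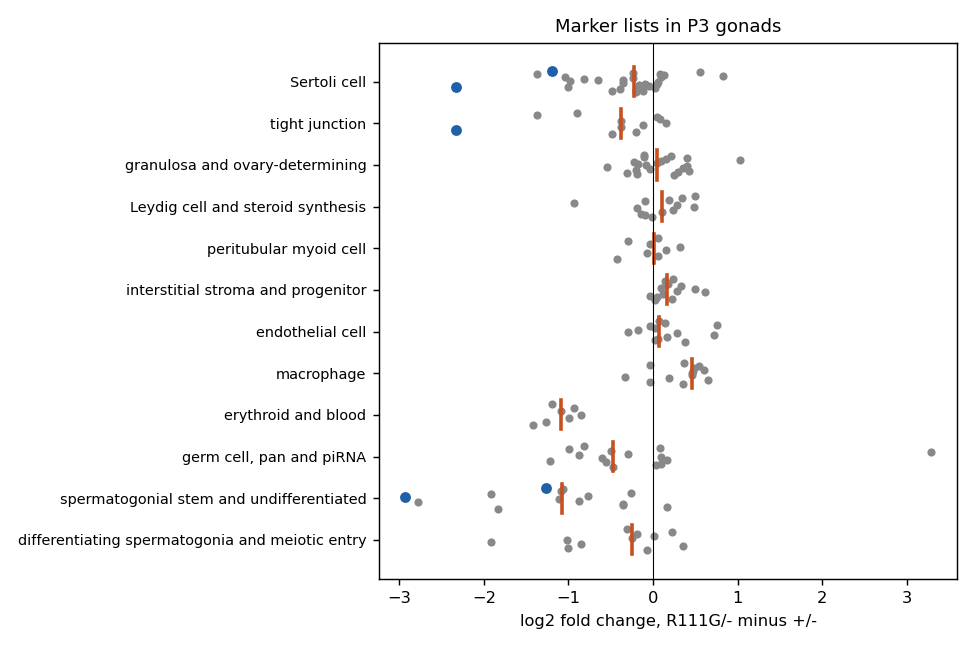
Log2 fold change of R111G/- over +/- (x axis) of the tested genes of each list (rows), with a point for each gene, an orange bar at the list's median and called genes in blue. The median is -1.08 for undifferentiated spermatogonia, -0.22 for Sertoli cells and 0.05 for granulosa cells.

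Sertoli cells isolated at P7 gave an independent reading of the genes found at P3. These libraries came from pools of mice in which *Dhh*-Cre had marked the cells with tdTomato, after depletion of cells bearing Thy1 or c-Kit. The mutant was homozygous for floxed *Dmrt1*, and the control is titled +/+ while its genotype label gives a floxed allele over a wild-type one. *Dmrt1* fell from a mean of 207 CPM in the control to 28.4 in the mutant, and 639 of 14013 genes (4.56%) were called, 280 lower (2%) and 359 higher (2.56%). Of the 25 genes called lower in R111G/- gonads, 21 were called lower in mutant Sertoli cells and 0 higher. *Islr2* fell from 83.4 to 0.480 CPM (log2 -7.41) and *Ocln* from 100 to 4.11 CPM (log2 -4.61). The other 4 of the 25 were *Lhx1* (log2 -2.41, adjusted p = 0.101), *Dmrta1* (log2 -1.23, adjusted p = 0.0525), *Bcl6b* (log2 -1.38, adjusted p = 0.065) and *Adamts16* (log2 0.37, adjusted p = 0.623). *Fshr*, which had not passed at P3, was called lower at P7 (log2 -1.50, adjusted p = 0.00359).

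The 6 genes called higher at P3 divided at P7. *Prox1* (log2 4.05), *Neto2* (log2 2.37) and 5330417C22Rik (log2 2.20) were called higher in mutant Sertoli cells. *Emb* was called lower, from 22.8 to 3.03 CPM (log2 -2.86, adjusted p = 0.00948), as was *Slc38a5* (log2 -2.15, adjusted p = 0.0244), and *Fndc5* did not pass (log2 -0.51, adjusted p = 0.165). No R111G allele was present in these cells, so that *Emb* and *Slc38a5* fell with loss of *Dmrt1* in P7 Sertoli cells and rose in P3 gonads with R111G in place of the wild-type allele. The plot of P3 against P7 changes sets them in the quadrant of opposite signs.

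**Figure D5:**
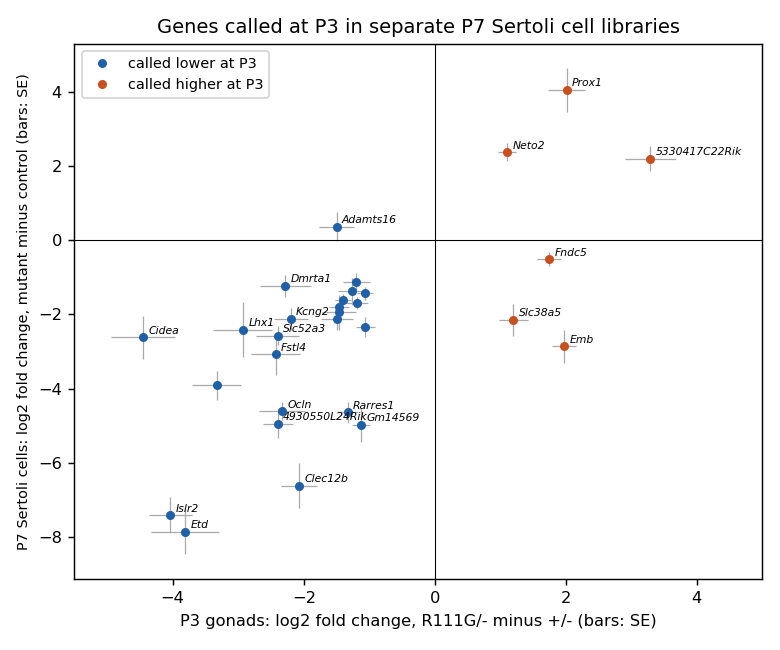
Log2 fold change of R111G/- over +/- P3 gonads (x axis) against that of mutant over control P7 Sertoli cells (y axis) for 30 of the 31 genes called at P3, with bars for the SE. 4933416E14Rik, at 0 counts in R111G/-, was left out because its P3 fold change depends on the prior count. *Emb* (1.97 and -2.86), *Slc38a5* (1.2 and -2.15) and *Fndc5* (1.74 and -0.51) lie right of 0 on the x axis and below 0 on the y axis.

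P28 gonads, also separate libraries, changed in a large share of all genes, 34.8% of 20952 in R111G/+ and 58.5% in -/- against +/-, with 28.1% and 38.7% called lower. Of the 25 genes lower at P3, 23 were tested at P28, and 6 were called lower in R111G/+ gonads. *Islr2* (log2 -3.88), *Kcng2* (-4.51), *Lhx1* (-2.84) and *Tulp2* (-1.85) were among these, and the share is close to the 28.1% of all genes. In P28 -/- gonads 20 of the 23 were called lower and 1, *Bcl6b*, higher, beside 19.8% of all genes called higher. In P28 R111G/+ gonads *Ocln* was not called (log2 0.65, adjusted p = 0.144), and in P28 -/- gonads its log2 fold change was -2.50. *Emb*, *Fndc5* and *Slc38a5* were higher in P28 R111G/+ than in +/- gonads, by 0.65 (adjusted p = 0.0109), 0.77 (adjusted p = 0.0147) and 0.97 (adjusted p = 0.00597) on the log2 scale, each under 2-fold, beside 16.9% of all genes that were higher at an adjusted p under 0.05. In P28 -/- against +/- gonads *Fndc5* was higher too (log2 1.05, adjusted p = 0.0012, beside 30% of all genes higher at any fold), *Emb* was lower (log2 -2.35, adjusted p = 2.8e-07) and *Slc38a5* did not pass (log2 -0.49, adjusted p = 0.0933).

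The called genes lay on many chromosomes, and their share of the genes tested was highest on X. The X chromosome held 6 of them, 5 lower and 1 higher, of 622 genes tested there (0.965%, beside 0.196% overall). Chromosome 18 held 3 of 443, and chromosome 19, which carries *Dmrt1*, 0 of 523. On X, the starts of *Ccdc160* and *Etd* lay 0.644 Mb apart, and that of 4930550L24Rik 5.47 Mb after *Etd*. The uneven share was not tested.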

How the data were processed

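Libraries were stranded poly(A) mRNA sequenced from both ends. According to the submitters' processing notes, FastQC 0.11.8, Trim Galore 0.6.0 and cutadapt 1.18 served for read quality and trimming, and STAR 2.7.2a aligned to GRCm38 (mm10). Reads were counted by strand per GENCODE M25 gene, and the deposited table holds raw counts of 55401 genes. Which part of *Dmrt1* the null allele lacks is not given in the sources used here. A list of Hi-C interactions was not used here. The ChIP-seq libraries of the series, which include DMRT1 ChIP-seq of P3 gonads of the same genotypes, were not used either. Gene positions came from GENCODE M21, which held 55141 of the identifiers (99.5%).

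Counts of the 12 P3 libraries were fitted together in R 4.3.3 with edgeR 4.0.16 (filterByExpr, trimmed mean of M values, quasi-likelihood F test, 4 group means, 8 residual degrees of freedom), and P7 and P28 libraries in fits of their own. The study states the thresholds (adjusted p under 0.05, over 2-fold) and no tool. Adjusted p-values cover all genes of a fit. Each standard error is the log2 fold change divided by the root of F. Levels are CPM. Replicate numbers did not pair the samples, since deviations of same-numbered +/- and R111G/- libraries correlated at 0.035, -0.381 and 0.000886. On simulated counts of this comparison over 15837 genes, the test called 83 of 100 genes given a 3-fold change, 91 of 100 given a 6-fold change and 6 of the rest. The counts were drawn from the fit's own means and dispersions, and only genes above a minimum mean level were given a change. They did not copy the uneven germ cell and erythroid content of the +/- libraries, so these are not rates for the real libraries.

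Named genes were *Dmrt1* and genes of the study's question, the 12 called genes with the largest change in each direction with a mean of at least 5 CPM in either group and no overlap (predicted genes passed over), and up to 4 genes of each list by smallest p. Where fewer were called, the next genes by unadjusted p filled the 12. Some genes that the rule names are not reported here. The members and the gene lists were chosen with earlier results of these data known. Alternatives used limma 3.58.1, DESeq2 1.42.0, other scalings and filters, a replicate block, the 6 libraries alone, each library left out, and a germ cell covariate.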

Additional observations from a re-analysis of the deposited data

How the results depend on the processing

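All 31 called genes kept their direction wherever they could be fitted. The 31 stayed called with DESeq2's size factors, with library totals, with a 1 CPM filter, with no filter and with DESeq2's own test, while 28 stayed with limma, 27 with a test against 1.2-fold, 28 with the germ cell covariate and 23 of the 30 fitted with the 6 libraries alone. Counts of calls moved most. Without a filter 64 genes were called higher and 144 lower, of which 47 were lower at P7 too, with 179 calls against -/- and 395 against R111G/+. Of the 208 genes called against +/- without a filter, 6 lay outside the main filter, so that most had been tested in the main fit. DESeq2's test called 21 higher and 44 lower, 61 against -/- and 155 against R111G/+. Dropping the fold limit gave 132 calls against R111G/+, and the germ cell covariate 40. The causes were not tested. List medians moved to -0.20 (germ cells) and -0.85 (erythroid) with limma, and to -0.38 (undifferentiated spermatogonia), 0.25 (germ cells) and -0.17 (tight junctions) with the covariate. Signs reversed for uncalled genes alone, *Sox8* (0.00) and *Nr5a2* (0.03) with limma and *Dmrt1* (0.12), *Foxl2* (-0.14), *Nr5a2* (0.30) and *Hsd17b1* (-0.05) with the covariate.

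Leaving out 1 library at a time gave 5 to 9 genes called higher, 14 to 28 lower, 13 to 23 lower also at P7, 13 to 57 against -/- and 38 to 84 against R111G/+. List medians ran from -0.39 to -0.10 (Sertoli), 0.06 to 0.18 (granulosa), -1.36 to -0.67 (undifferentiated), -0.81 to 0.24 (germ cells), -0.47 to -0.16 (tight junction), -1.36 to -0.30 (erythroid), 0.33 to 0.68 (macrophage) and -0.01 to 0.33 (Leydig). Log2 fold changes ran from -0.25 to 0.06 for *Dmrt1*, -0.18 to 0.18 for *Sox8*, -0.16 to 0.40 for *Foxl2*, -0.36 to 0.25 for *Esr2*, -0.25 to 0.21 for *Nr5a2*, -0.17 to 0.42 for *Hsd17b1* and -0.17 to 0.57 for *Defb36*.

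With the replicate number as a block, though the numbers did not pair the samples, 7 genes were called higher and 23 lower, 20 of them lower at P7, with 19 calls against -/- and 56 against R111G/+, and 28 of the 31 stayed called.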

Other observations

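Retinoic acid genes, which were not described above, held 0 called genes of 13 tested in R111G/- against +/- gonads by edgeR's quasi-likelihood test, with 3 higher and 1 lower at an unadjusted p under 0.05. *Crabp2*, a cellular retinoic acid binding protein, stood at 1.40, 3.15 and 3.10 CPM in +/-, at 9.49, 7.16 and 6.24 in R111G/-, at 9.70, 6.71 and 17.6 in -/- and at 1.64, 0.782 and 0.460 in R111G/+. It did not pass against +/- (log2 1.58 ± 0.438, adjusted p = 0.281) and was higher in R111G/- than in R111G/+ (log2 2.96, adjusted p = 0.0113). *Aldh1a2*, which makes retinoic acid, gave 14.6, 21.5 and 20.0 CPM in +/- and 28.3, 29.1 and 33.6 in R111G/- without overlap, and did not pass (log2 0.70 ± 0.192, adjusted p = 0.275).

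The summed level of 7 MHC class II genes, which present antigen, was 17.8 to 22.5 CPM in +/-, 22.1 to 26.3 in R111G/-, 52.2 to 81.5 in -/- and 10.5 to 17.0 in R111G/+ libraries. *H2-Ab1*, a member of this list, stood at 2.90, 4.13 and 3.66 CPM in R111G/- and at 12.6, 15.0 and 10.8 in -/-, and was lower in R111G/- (log2 -1.84, adjusted p = 0.0277). *Dpf3*, a chromatin reader subunit that was next to the threshold, stood at 6.49, 6.43 and 7.89 CPM in +/-, at 11.3, 16.0 and 12.1 in R111G/- and at 22.3, 22.6 and 22.7 in -/-, with log2 fold changes of 0.92 (adjusted p = 0.053) against +/- and -0.78 (adjusted p = 0.0961) against -/-.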
